A study of Mus musculus with 2 samples.

Results

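The Hox genes encode homeobox transcription factors that give cells of the embryo their position along the body axis. They were taken as the protein-coding genes whose symbol is Hoxa, Hoxb, Hoxc or Hoxd followed only by digits, which gave 39 of the 43629 genes listed. Cluster A held 11 of them on chromosome 6, cluster B 10 on chromosome 11, cluster C 9 on chromosome 15 and cluster D 9 on chromosome 2 (GRCm38). RNA sequencing was analysed for 1 group of 2 libraries from Dicer_KO mESCs, mouse embryonic stem cells in which Dicer1 was inactivated by paired CRISPR/Cas9 cuts. Replicate 1 was made at passage 7 and replicate 2 at passage 4, and both carry the genotype Dicer knockout on a 129/Ola background. The parental line was E14TG2a, the cells were kept in serum + LIF, and the mutants were a pair of independent lines, Δ23 and Δ13, each grown from a sorted single cell. The labels do not name the deletion of each library. With 1 library per passage, the deletion, the clone, the passage and the library preparation cannot be told apart in any difference between them, and no p-value could be given. WT mESCs were not analysed here, so no value below measures an effect of losing Dicer.

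In each cluster the genes stand in the order of their paralog numbers. Those with low numbers, at the anterior end, are turned on first and act in the hindbrain and neck, and those with high numbers act in the trunk, limbs, tail and urogenital tract. In embryonic stem cells the clusters are held silent by Polycomb complexes and are opened by signals such as retinoic acid, which acts through receptors and Cdx factors. DICER cuts hairpin precursors into mature miRNAs, and the clusters themselves hold the genes of the miR-10 and miR-196 families, which are known to repress Hox mRNAs.

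The mature miRNAs are shown because they lie among the Hox genes and depend on DICER. Sequences and positions are from RefSeq on GRCm38.p6, and capitals mark the seed, bases 2 to 8, by which a miRNA recognises its targets.
miR-10a-5p (chr11:96317186-96317208, plus strand): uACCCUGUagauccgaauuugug
miR-10b-5p (chr2:74726074-74726096, plus strand): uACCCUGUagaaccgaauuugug
miR-196a-5p (chr11:96265187-96265208 and chr15:102973365-102973386, plus strand): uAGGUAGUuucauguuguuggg
miR-196b-5p (chr6:52230129-52230150, minus strand): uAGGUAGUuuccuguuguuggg
The miR-10 pair shared one seed and the miR-196 pair another. The hairpin genes Mir10a, Mir10b, Mir196a-2 and Mir196b had 0 counts in both libraries, whereas Mir196a-1, between Hoxb13 and Hoxb9, had 76 counts in replicate 1 and 63 in replicate 2. These are polyA RNA libraries, which do not hold mature miRNAs, so the counts are reads of longer transcripts over the 102 nt of the hairpin.

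The longest 3′ UTR of each Hox gene in the GENCODE M21 transcripts was searched for the letters opposite each seed, ACTACCT for miR-196 and ACAGGGT for miR-10, on the transcript strand only. ACTACCT was found in 9 of 39 Hox 3′ UTRs (23.1%), against 6.11% of the 3′ UTRs of 20673 genes, with the same median length of 966 nt. Per kb there were 0.340 matches in the Hox genes and 0.0455 in all genes. ACAGGGT was found in 4 of 39 (10.3%) and in 12.6% of all. The genes with an ACTACCT match included Hoxa4, Hoxa5, Hoxa7, Hoxa9, Hoxb1, Hoxb6, Hoxb7 and Hoxc8, and those with ACAGGGT included Hoxa3, Hoxb3 and Hoxd1. The ACTACCT letters overlap the let-7 match CTACCTC at some sites, such as that of Hoxb1. The 4 matches of Hoxa7 and the 2 of Hoxc8, the genes with more than 1 ACTACCT, and the ACAGGGT match of Hoxd1 are printed with capitals for the letters searched.
Hoxa7, chr6:52215400-52215421: ggcacagccaaaatACTACCTa
Hoxa7, chr6:52215363-52215384: agaggcactcccaaACTACCTa
Hoxa7, chr6:52215231-52215252: aaaccatgatcaatACTACCTa
Hoxa7, chr6:52215210-52215231: actactagccctaaACTACCTa
Hoxc8, chr15:102992976-102992997: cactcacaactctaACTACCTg
Hoxc8, chr15:102993733-102993754: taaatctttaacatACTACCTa
Hoxd1, miR-10, chr2:74764931-74764952: agcggaacaaatccACAGGGTa
Sites of Hoxa7 are on the minus strand and those of Hoxc8 and Hoxd1 on the plus strand.

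Hoxb8, which acts in trunk patterning and in blood and microglial cells, held no ACTACCT but the longest pairing with miR-196a-5p. All 22 bases of the miRNA could pair there without a gap, 21 as Watson-Crick pairs and 1 as a G:U pair, marked by the small letter.
Hoxb8, chr11:96284888-96284909, plus strand: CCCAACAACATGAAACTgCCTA
Of the 20673 3′ UTRs, 2 reached 22 pairs, and the next Hox genes, Hoxa10 and Hoxd3, reached 19 as 1886 UTRs did. Hoxb8 itself had 4 counts in replicate 1 and 6 in replicate 2. The 9 genes with ACTACCT summed to 298 and 119 counts, and 2 of them, Hoxa9 included, had at least 10 in both libraries. The 4 genes with ACAGGGT summed to 230 and 99. A match is a description of letters, and no effect on these levels was measured.

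Totals were 41710122 counts in replicate 1 and 41566184 in replicate 2, with 17819 and 17461 genes at 10 counts or more. A gene at 0 may still have a share, and 3 counts, the limit used for such a gene, are 0.0719 or 0.0722 CPM. The upper 95% limit of the counting error at 0 counts is 0.0884 or 0.0887 CPM. CPM are counts per 1000000 counts on genes. Dicer1, the targeted gene (chr12:104687742-104751952, minus strand), had 1343 counts (32.2 CPM) and 1510 counts (36.3 CPM). This count is for the whole gene, with the exons outside the deletions, so it does not check the genotype here. The study stated from its RNA sequencing that Dicer mRNA was lost in the mutants, a comparison with WT that was not made here. All 10 pluripotency markers were detected with at least 10 counts in both libraries. The highest was Dppa5a, a gene of early embryonic cells, with 199860 and 84835 counts. The 14 fibroblast and feeder markers summed to 34.1 and 24.6 CPM, 3 of them at 0 in replicate 1 and 2 in replicate 2, with Col3a1 at 1 and 0 counts and Postn at 0 in both. Intervals given below are 95% limits of the counting error alone.

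The Hox genes were expressed at low levels in both libraries, and replicate 1 held about 2.5 times the Hox RNA of replicate 2. Summed over the 39 genes, there were 1355 counts in replicate 1, or 32.5 CPM (exact Poisson interval 30.8 to 34.3), and 496 in replicate 2, or 11.9 CPM (10.9 to 13.03). The mean was 22.2 ± 14.5 CPM (SD, n = 2), and the intervals did not overlap. After replicate 2 was multiplied by 1.09, the TMM scaling of all genes, the fold of the sums was 2.51 (exact conditional binomial interval 2.26 to 2.79). More cells with Hox RNA and more Hox RNA per cell cannot be told apart in such bulk samples. Each cluster contributed to it. Cluster A had 10.2 CPM in replicate 1 and 3.34 in replicate 2, cluster B 9.25 and 4.31, cluster C 4.65 and 1.32, and cluster D 8.42 and 2.96. The folds were 2.80 (2.31 to 3.42) for A, 1.98 (1.66 to 2.38) for B, 3.24 (2.39 to 4.46) for C and 2.62 (2.13 to 3.25) for D. The intervals of A, C and D overlapped one another. Cluster B was lowest, and its interval overlapped those of A and D but not that of C. Without Hoxb9, cluster B had a fold of 4.37 (3.27 to 5.92).

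**Figure D1:**
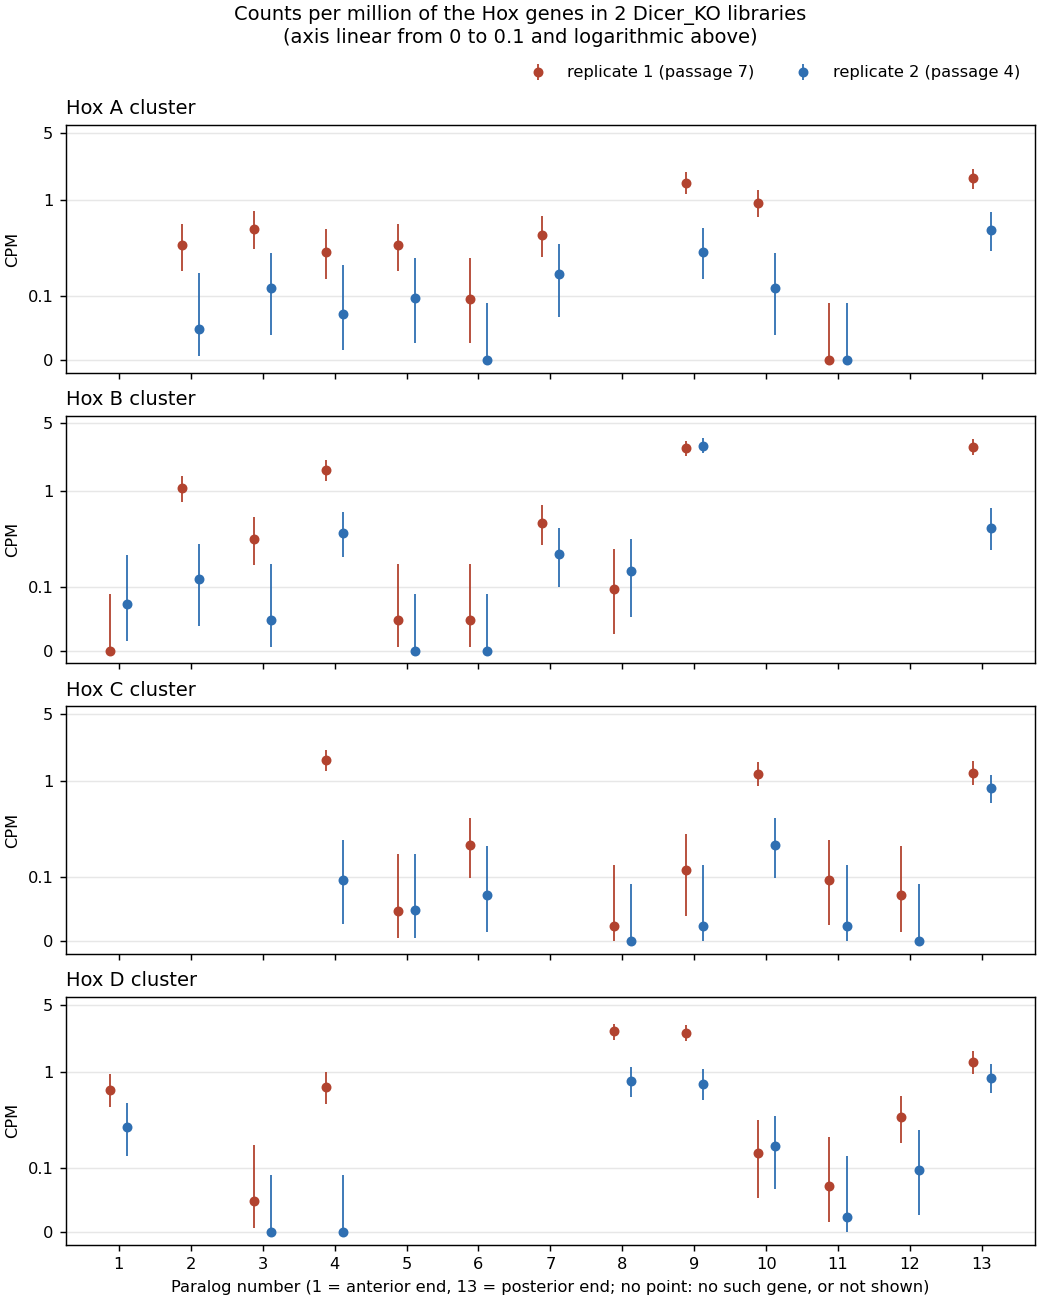
Level of the Hox genes reported by name in CPM (axis linear to 0.1, logarithmic above) by paralog number, 1 panel per cluster. Points are the 2 Dicer_KO libraries and bars the 95% counting intervals. Replicate 1 is above replicate 2 for most genes, and Hoxb9 is level.

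Set per kb of exon, Hox levels were far below those of most genes. The median of the 39 was 0.179 CPM per kb in replicate 1 and 0.0375 in replicate 2, against 1.47 and 1.00 over 21474 protein-coding genes. At least 1 CPM per kb was reached in both libraries by Hoxb9 alone, and in at least one of them by 4 members, with Hoxd9 and Hoxb13 among them. Of all protein-coding genes 53.1% reached it in replicate 1 and 50.03% in replicate 2. A count of 10 was met in both libraries by 11 Hox genes (28.2%), against 65.2% of protein-coding genes and 38.3% of all genes listed. In replicate 1 it was met by 24, in replicate 2 by 11. Hoxa11, which patterns the forearm and uterus, was the only member at 0 in both libraries, where 18.2% of protein-coding genes were at 0 in both.

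Of the 39 members, 33 were higher in replicate 1 after scaling, 5 were lower and Hoxa11 was at 0. Among the 25853 genes with any count, 49.9% were higher and 50.1% lower in replicate 1. The 5 lower members were Hoxb1 with 0 and 3 counts, Hoxb8 with 4 and 6, Hoxb9 with 115 and 122, Hoxc5 with 2 and 2, and Hoxd10 with 6 and 7. The interval of the ratio was not computed for Hoxb1 and Hoxc5, with no more than 3 counts in either library. For the other lower members it did not lie below 1. It lay above 1 for 18 of the 30 members with more than 3 counts in a library, against 33.3% of 21075 such genes, while 31.3% of these lay below 1. A mean of 10 counts was reached by 19 members, 8 of them with fewer than 10 counts in replicate 2, so this group is in part chosen for being high in replicate 1. Of the 19, 14 were beyond 2-fold higher (log2 ratio with a pseudocount of 1) and 0 lower. The same thresholds gave 14.2% higher and 7.14% lower over 17788 genes, and 25.9% higher and 15.4% lower over the 4783 genes with a mean of 10 to 100 counts. The other 5 included Hoxb7, Hoxb9, Hoxc13 and Hoxd13. The median log2 ratio was 1.64 for the 19 and 1.58 for all 39, beside 0.02 over all genes tested and 0.16 over those with a mean of 10 to 100 counts.

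**Figure D2:**
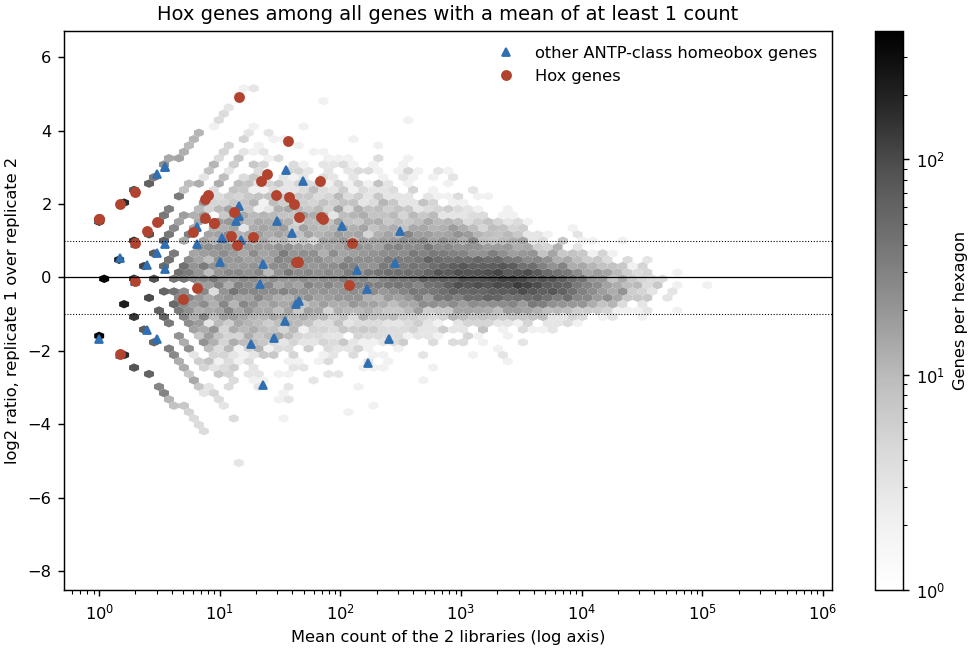
Log2 ratio of replicate 1 over replicate 2 against the mean count (log axis), with all genes with a mean of at least 1 count as grey hexagons. Red circles are Hox genes, blue triangles other ANTP-class homeobox genes, and dotted lines the 2-fold limits. The Hox genes lie at low counts and mostly above 0, with 14 above the upper line among those with a mean of 10 or more.

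In cluster A, most counts of the genes named here stood towards the posterior end. Near the anterior end, Hoxa2 (second pharyngeal arch) had 14 and 2 counts, Hoxa3 (thymus and parathyroid) 21 and 5, and Hoxa4 12 and 3. The middle of the cluster was low in both libraries. Hoxa5, needed for lung formation, had 14 and 4 counts, Hoxa6 4 and 0, and Hoxa7 18 and 7. Towards the posterior end, Hoxa9, a gene of blood progenitors, had 63 and 12 counts, a fold of 4.82 (2.58 to 9.83). Hoxa10, of the uterus and lumbar spine, had 39 and 5 counts, a fold of 7.17 (2.82 to 23.3). Hoxa13, of the digits and urogenital tract, had 70 and 20, a fold of 3.22 (1.93 to 5.58). The members Hoxa9, Hoxa10 and Hoxa13 were thus all higher in replicate 1 by more than the counting error, on either side of Hoxa11, which had 0 counts.

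Cluster B (chr11:96194316-96368256) held members of like counts in replicate 1 that differed in replicate 2. Hoxb9, of the thoracic region, had 115 counts in replicate 1 (1.07 CPM per kb) and 122 in replicate 2 (1.14), with a fold of 0.866 (0.665 to 1.13). Hoxb13, a posterior gene known from prostate and tail bud, had 119 counts (1.29 CPM per kb) and 17 counts (0.185), a fold of 6.43 (3.85 to 11.4). The intervals of the 2 folds did not overlap. Hoxb9 alone made up 8.49% of all Hox counts in replicate 1, against 24.6% in replicate 2. Without it the fold of the Hox sum was 3.05 (2.71 to 3.43), and without Hoxb13 it was 2.37 (2.13 to 2.64). At the anterior end, Hoxb2 (hindbrain and facial motor neurons) had 44 and 5 counts, a fold of 8.09 (3.21 to 26.1). Hoxb4, of blood stem cells and the neck, had 68 and 15 counts, a fold of 4.17 (2.36 to 7.85). Hoxb3 had 13 and 2 counts, and Hoxb7 had 19 and 9, with a fold of 1.94 (0.836 to 4.87) that spanned 1. Hoxb1, of the hindbrain, was not detected in replicate 1 and had 3 counts in replicate 2. Hoxb5 and Hoxb6 had 2 counts each in replicate 1 and 0 in replicate 2.

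Between Hoxb13 and Hoxb9 lies a gap of 74.0 kb with other transcripts. Gm53, a lincRNA, had 675 and 495 counts, a fold of 1.25 (1.11 to 1.41), and ended 295 nt before Mir196a-1, which lies 6.19 kb before Hoxb9. Mir196a-1 had a fold of 1.11 (0.783 to 1.57). The pair next to Hoxb9 and Hoxb9 itself thus stayed within 1.5-fold, while Hoxb13 at the far side did not. Gm11539, a processed pseudogene in the gap, had 2361 and 2055 counts, which are uncertain because reads of near-identical copies may be counted there. Close to Hoxb13, the small RNA genes Gm27605 and Gm27898 had 48 and 19, and 14 and 8 counts. Hoxb3os, antisense to Hoxb3 and Hoxb2, had 22 counts in replicate 1 and 1 in replicate 2, a fold of 20.2 (3.27 to 834). Hoxb3os shared 52.9% of the exon length of Hoxb3 and 27.3% of that of Hoxb2, and the strand setting of the counting is not stated. If both strands were counted together, reads on the shared exons were left out, and these genes were undercounted by an unknown amount.

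**Figure D3:**
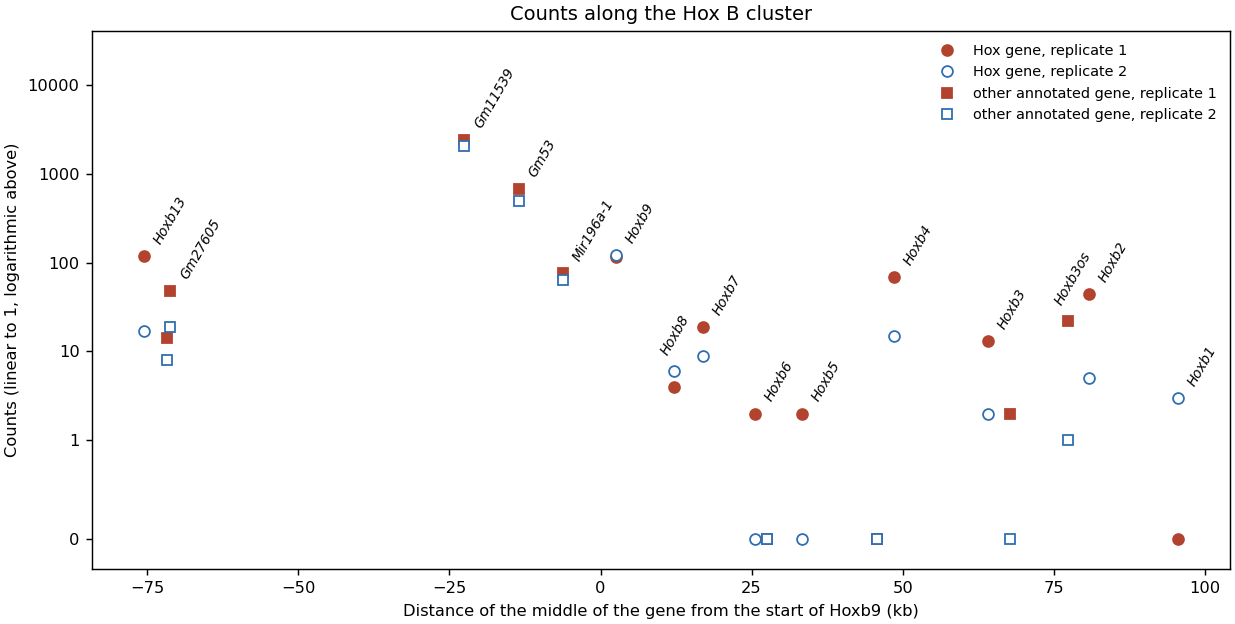
Counts (linear to 1, logarithmic above) of the genes of the Hox B cluster in both libraries against the distance in kb from the start of Hoxb9, with circles for Hox genes and squares for other annotated genes. Gm53, Mir196a-1 and Hoxb9 lie within 1.5-fold between the libraries, and Hoxb13 has 119 and 17.

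Cluster C (chr15:102921103-103036852) was the lowest of the clusters, with 3 members at a mean of 10 counts or more besides 6 below it. Hoxc4, at its anterior end, had 69 counts in replicate 1 and 4 in replicate 2, a fold of 15.8 (5.92 to 59.8), the highest ratio of any Hox gene with counts in both. Hoxc10, of lumbar motor neurons, had 50 and 9 counts, a fold of 5.10 (2.49 to 11.8). Hoxc13, needed for hair and nails, had 51 and 35 counts, and its fold of 1.34 (0.854 to 2.12) spanned 1. Among the low members, Hoxc6 had 9 and 3 counts, Hoxc9 5 and 1, Hoxc11 4 and 1, and Hoxc12 3 and 0. Hoxc5 had 2 and 2, and Hoxc8, a thoracic gene, 1 and 0. Genes of chromosome 15 were higher in replicate 1 as a whole, with a median log2 ratio of 0.59 over 683 genes and 29.1% beyond 2-fold higher, against medians of -0.06, 0.03 and 0.07 on chromosomes 2, 6 and 11. The part of this shift in the cluster C values was not tested. Without cluster C, the fold of the Hox sum was 2.42 (2.17 to 2.71), and after each ratio was centred on the median of its chromosome, 14 members were still beyond 2-fold higher.

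Cluster D (chr2:74668310-74765142) was led by Hoxd8 and Hoxd9, neighbouring genes of trunk patterning. Hoxd8 had 110 counts in replicate 1 (0.961 CPM per kb) and 33 in replicate 2 (0.289), a fold of 3.06 (2.06 to 4.67). Hoxd9 had 107 (1.20 CPM per kb) and 31 (0.349), a fold of 3.17 (2.11 to 4.90). These neighbours had nearly equal counts and folds. Hoxd13, needed for digit formation, had 53 and 36 counts, a fold of 1.35 (0.869 to 2.13), while Hoxd12 next to it had 14 and 4. Hoxd1, the most anterior gene, had 27 and 11 counts, a fold of 2.26 (1.08 to 5.04). Hoxd4 had 29 counts in replicate 1 and 0 in replicate 2, which makes it at least 8.88-fold higher in replicate 1 when its 29 counts are set against the limit of 3 counts. With the counting error of both libraries, the lower limit of its fold was 6.77. Reads on overlapping exons were left out of the counts, and Hoxd4 shares 52.3% and Hoxd3 62.8% of the exon length with other genes, so both are undercounted by an unknown amount. Hoxd3 had 2 and 0 counts, Hoxd10 6 and 7, and Hoxd11 3 and 1.

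**Figure D4:**
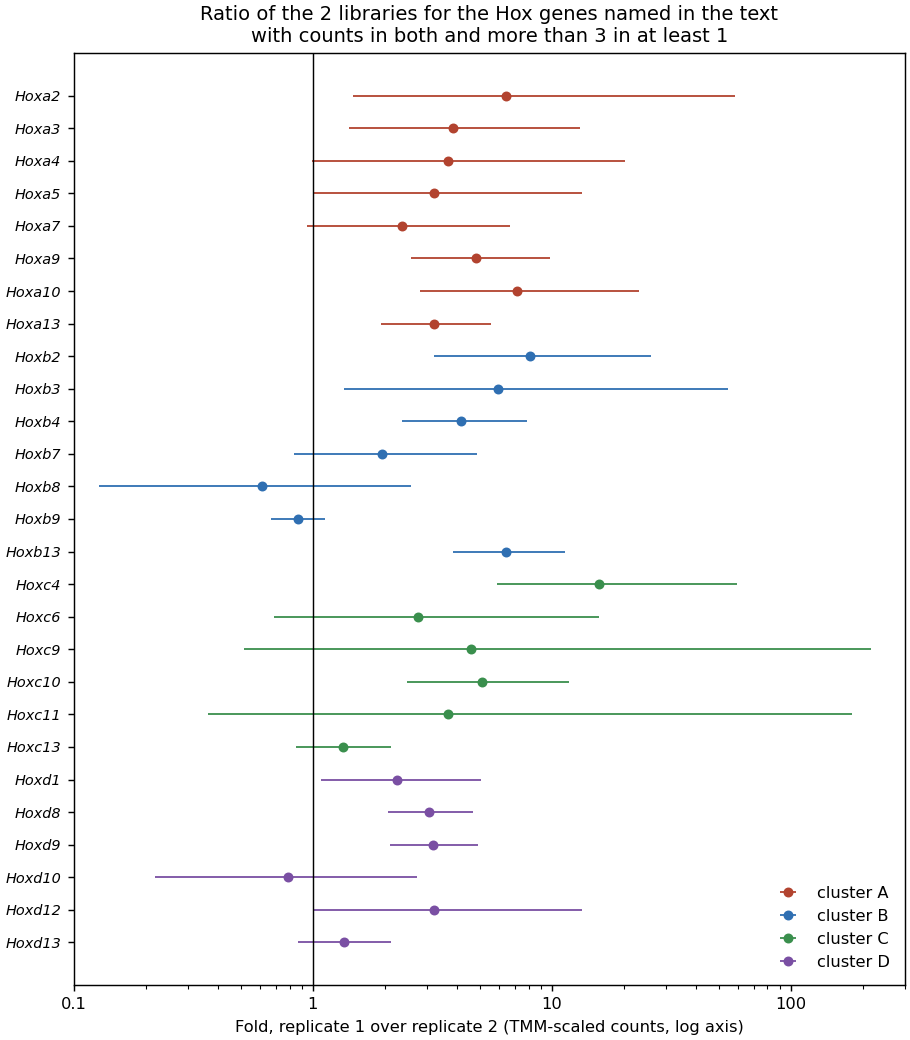
Fold of replicate 1 over replicate 2 (TMM-scaled counts, log axis) with 95% counting intervals for the Hox genes reported by name with counts in both libraries and more than 3 in a library, in cluster order. Hoxb9 and Hoxc13 span 1 with narrow intervals, whereas Hoxc4, Hoxb2, Hoxa10 and Hoxb13 lie above 2.

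Position along the clusters was compared over paralog groups. Paralogs 1 to 4, with 12 genes, summed to 468 counts in replicate 1 and 131 in replicate 2, a fold of 3.28 (2.70 to 4.02). Paralogs 5 to 8, with 11 genes, summed to 185 and 64, a fold of 2.66 (1.99 to 3.59). Paralogs 9 to 13, with 16 genes, summed to 702 and 301, a fold of 2.14 (1.87 to 2.46). In both libraries the middle was lowest and the posterior group held the most counts. The interval of the anterior fold did not overlap that of the posterior one, but this rested on Hoxb9. Without it, paralogs 9 to 13 summed to 587 and 179, a fold of 3.01 (2.54 to 3.58) that overlapped the anterior one. Within paralogs 1 to 4, the folds of the separate paralog groups ran from 1.90 to 7.61. Group 4 (Hoxa4, Hoxb4, Hoxc4 and Hoxd4) had 178 and 22 counts, a fold of 7.43 (4.76 to 12.2), and group 2 had 58 and 7, a fold of 7.61 (3.47 to 19.8). Group 9 had 290 and 166 (1.61, 1.32 to 1.95), with Hoxb9 the largest share in replicate 2, and group 13 had 293 and 108 (2.49, 1.99 to 3.14). Members of group 13 split into Hoxa13 and Hoxb13, beyond 2-fold, and Hoxc13 and Hoxd13, whose intervals spanned 1. Group 8 had 115 and 39 counts, mostly from Hoxd8, and group 10 had 95 and 21, mostly from Hoxa10 and Hoxc10 in replicate 1 and from all 3 members in replicate 2. Groups 3, 5, 6, 7, 11 and 12 had from 7 to 37 counts in replicate 1 and from 2 to 16 in replicate 2.

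The clusters held 45 other counted genes, 26 of them at 0 in both libraries and 7 with a mean of at least 10 counts. Of these 7, 6 were in cluster B, and the other was Haglr, the noncoding gene beside Hoxd1, with 12 and 8 counts. In cluster A, Hotairm1, an antisense gene, had 7 and 9 counts and 9530018H14Rik 9 and 4. Gm27861 had 3 and 5, Gm15050 4 and 0, Gm27477 3 and 0, and the antisense genes Hoxaas3, Hoxaas2 and Hoxa11os had 3 and 1, 1 and 0, and 1 and 0. Gm11536 in cluster B had 2 and 0. In cluster C all 7 were at 0, the lincRNA Hotair among them. Hoxd3os1 in cluster D had 6 and 0 counts, Gm28230 1 and 1, and Gm28309 0 and 1. The genes flanking the clusters did not share a direction. Beside cluster A, the homeobox gene Evx1 had 128 and 379 counts, a fold of 0.310 (0.252 to 0.380), and beyond it Hibadh had 7361 and 5288, while Skap2 had 3236 and 3036 and Snx10 2248 and 2799 at the other end. Evx2, the homeobox gene next to Hoxd13, had 0 counts in both, Lnpk had 1704 and 1320, Mtx2 2430 and 1994 and Hnrnpa3 3016 and 3114. Around cluster B, Ttll6 near Hoxb13 had 1580 and 685 counts, a fold of 2.12 (1.94 to 2.32), Calcoco2 had 6649 and 6257, Skap1 38 and 52, and Snx11 802 and 1312. Around cluster C, Smug1 had 1723 and 737 counts, a fold of 2.15 (1.97 to 2.34), Calcoco1 3523 and 1998, Atp5g2 322 and 190 and Cbx5 30702 and 33414.

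Most partners and regulators of the Hox genes lay within 2-fold between the libraries. The TALE cofactors, homeodomain proteins that bind DNA with Hox proteins, summed to 8626 and 7415 counts, a fold of 1.07 (1.04 to 1.10). Of 9 genes, 0 were beyond 2-fold in either direction, and the highest was Pbx2 with 2321 and 2036 counts. Of 16 trithorax-group activators, which keep Hox genes open, 0 were beyond 2-fold and the median log2 ratio was -0.32, with Kat6b highest at 13908 and 17997 counts. Of 24 Polycomb repressors, 2 were higher and 1 lower, with a median of -0.23. Cbx8, a reader subunit, had 168 and 62 counts, while Kdm2b, which brings Polycomb complexes to CpG islands, had 2230 and 5538. Jarid2 was the highest with 22686 and 31606. These shares stand beside 14.2% higher and 7.14% lower over all genes tested.

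Among the 22 genes of Cdx factors and the retinoic acid pathway, 19 had a mean of at least 10 counts. Of these 19, 7 were beyond 2-fold higher and 2 lower, against 14.2% and 7.14% over all genes tested. At a mean of 10 to 100 counts, where most of the called members lay, the shares over all genes were 25.9% and 15.4%. The median log2 ratio of the 19 was 0.14. Cdx1, a direct activator of Hox genes, had 76 counts in replicate 1 and 5 in replicate 2. Cdx4, of the same family, had 9 and 34, the opposite direction. Aldh1a3, which makes retinoic acid, had 120 and 16 counts. The receptors Rxra and Rarb had 2880 and 1243, and 20 and 7, whereas Rxrg had 49 and 209. Dhrs3, which reduces retinal, had 455 and 171 counts, Crabp1, a binding protein, 132 and 51, and Stra6, the vitamin A importer, 47 and 18. Rarg was the highest of the list with 9171 and 9429 counts, nearly equal in both.

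The other ANTP-class homeobox genes, the relatives of the Hox genes outside the clusters, did not move one way. Of 52 genes, 25 had a mean of at least 10 counts, of which 11 were beyond 2-fold higher and 6 lower, against 14.2% and 7.14% over all genes tested and 25.9% and 15.4% at a mean of 10 to 100 counts. Their median log2 ratio was 0.40. They summed to 2056 and 1854 counts, a fold of 1.02 (0.956 to 1.09), whose interval did not overlap that of the Hox sum (2.26 to 2.79). Higher in replicate 1 were, among others, Vax2 of the eye, the highest of the list, with 448 and 170 counts, Nkx6-3 with 155 and 53, Dlx3 with 86 and 12, Dbx2 with 64 and 7, Tlx1 with 46 and 14, Nkx2-5 of the heart with 24 and 5, Dlx6 with 23 and 6, Pdx1 of the pancreas with 21 and 6, Barx2 with 21 and 9, and Lbx2 with 15 and 6. Lower, besides Evx1, were Gbx2 with 60 and 280, Meox1 with 22 and 47, Meox2 with 14 and 42, Nkx2-9 with 5 and 41, and En1 of the midbrain with 8 and 28.

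Markers of other cell types moved in both directions beside the Hox genes. Primitive streak, mesoderm and endoderm markers summed to 1030 and 542 counts, a fold of 1.75 (1.57 to 1.94), and 2 of 6 with a mean of 10 counts were beyond 2-fold higher, Eomes with 334 and 151 and Gata6 with 16 and 5. Gata4 was the highest with 586 and 318, and most counts of the sum were from Gata4 and Eomes. Below a mean of 10 counts, Mesp1 had 1 and 9, the opposite direction. Foxa2 had 6 and 1, T had 3 and 2, and Msgn1 had 0 in both. Neural markers summed to 3365 and 5389, a fold of 0.574 (0.549 to 0.599), with Tubb3 at 559 and 1653 and Neurod1 at 100 and 430, and the highest, Nes, at 1771 and 1852. Fibroblast and feeder markers had a fold of 1.28 (1.18 to 1.39). Their 1 member beyond 2-fold at a mean of 10 counts was Pdgfrb with 285 and 91, and the highest was Thy1 with 823 and 621. Pdgfrb and Thy1 held most of the 1423 and 1021 summed counts. Below that mean, Dcn had 0 and 19 and Acta2 1 and 11, with intervals below 1. S100a4 had 6 and 2 and Col1a2 6 and 1, with intervals that spanned 1. The pluripotency markers had a fold of 1.38 (1.37 to 1.39) but a median log2 ratio of 0.12. Dppa5a, their 1 member beyond 2-fold, held 199860 of 429328 summed counts in replicate 1 and 84835 of 285524 in replicate 2. The other 9 lay within 2-fold and in both directions, such as Nanog with a fold of 1.67 and Pou5f1 with 0.834. Olfactory and vomeronasal receptor genes, chosen after values were seen as families mostly silent in stem cells, had folds of 0.594 (0.537 to 0.657) and 0.537 (0.465 to 0.619). Of these families, 18 of 1166 olfactory and 10 of 493 vomeronasal genes had a mean of at least 10 counts. The part of these cell type markers in the Hox values was not tested.

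**Figure D5:**
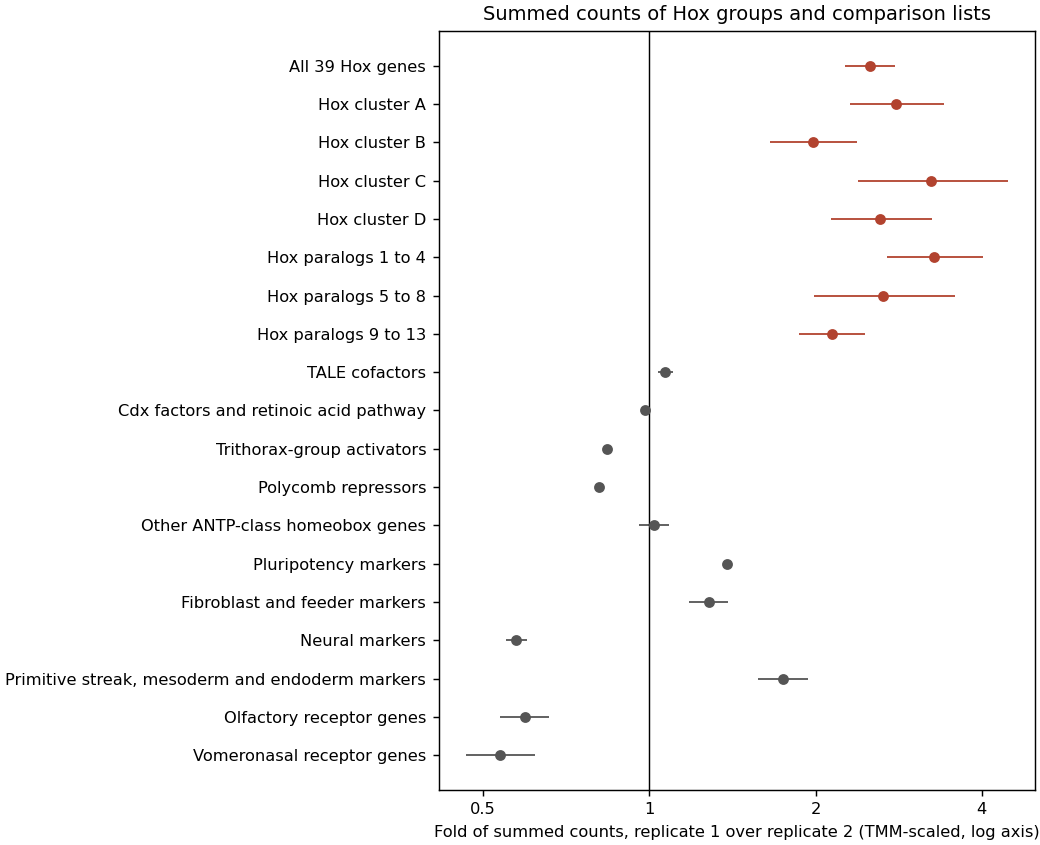
Fold of summed counts, replicate 1 over replicate 2 (log axis), for Hox groups in red and comparison lists in grey, with 95% counting intervals. The Hox groups lie between 1.98 and 3.28. Of the lists the primitive streak, mesoderm and endoderm markers come nearest at 1.75, with most of their counts from Gata4 and Eomes.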

How the data were processed

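PolyA RNA of 2 Dicer_KO libraries was analysed. The authors trimmed reads with Trimmomatic, aligned them with STAR 2.4.2a to mm10 and counted them per Ensembl gene with featureCounts 1.4.5-p1, ignoring overlapping regions. The deposited values are raw counts. The label names a reverse-stranded protocol, but the strand setting of the counting is not given in the sources used here. CPM used total counts as listed, with exact Poisson intervals, and lengths are union exon lengths of GENCODE M21, in which 1167 identifiers had no entry. Ratios used TMM scaling over all genes (edgeR 4.0.16, R 4.3.3) and a pseudocount of 1. Calls needed a mean of at least 10 counts and a fold of 2. With 1 group there was no contrast, so no model was fitted and no p-value computed. Scaling and intervals were tested on simulated data. Nothing says that the libraries are separate cultures beyond their titles and passages.

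The members and gene lists were chosen with earlier results of these data known. Named are the Hox genes, the other genes inside the clusters that had counts and the 2 nearest protein-coding genes on each side, Dicer1, and from each list the members beyond 2-fold and the highest one. Some other members of the marker lists are named as well. Most genes at 0 inside the clusters are given as a number only. The parental line, the culture and the deletions are from the study's methods. Alternatives were raw counts, DESeq2 1.42.0 size factors, total counts, chromosome centring, a pseudocount of 0.1, other minimums, a fold of 4, other exon lengths and leaving out each replicate. Folds of sums and the receptor families were added after seeing the data. Protein sequences were not analysed here. Not every gene behind the counts and sums is reported by name here.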

Additional observations from a re-analysis of the deposited data

How the results depend on the processing

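Of 46 values of 10 results under other settings, 0 reversed and 7 moved. Those not counted as moved include the cluster sums with a replicate left out, which changed by over 1.5-fold in most cases. They counted as moved only beyond the SD of the 2 libraries, which leaving out 1 of 2 can never reach. Their label was therefore fixed in advance and is no sign of stability. The count of Hox genes with at least 10 counts in both libraries, 11, became 24 with a minimum of 3 and 2 with a minimum of 50, and ranged from 11 to 24 when a replicate was left out. The 14 members beyond 2-fold higher became 3 of 5 with a mean of at least 50 counts (11.5% of all such genes), 27 of 39 with no filter (15.7%) and 7 with a fold of 4 (4.17%). The 0 members lower became 1 with no filter, Hoxb1 with 0 and 3 counts. The fold of the summed Hox counts lay between 2.31, for the 23 members with no exon overlap, and 2.73 with raw counts. These were chosen after seeing the data. Leaving out a replicate gave 3.34 to 10.2 CPM for cluster A, 4.31 to 9.25 for B, 1.32 to 4.65 for C and 2.96 to 8.42 for D. A ratio needs both libraries and has no value without one. No paired analysis was possible because the labels give 1 group. Depth limits the members below 10 counts, whose intervals mostly span 1.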
